A study of Homo sapiens with 12 samples.

Results

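The genes described here are 35 human immediate early and ERK feedback genes, taken by symbol from a table of 57773 Ensembl genes: the AP-1 genes FOS, FOSB, FOSL1, FOSL2, JUN, JUNB, JUND, ATF3 and MAFF, the early transcription factors EGR1, EGR2, EGR3, KLF2, KLF4, KLF6, KLF10, NR4A1 and SRF, the ETS factors ETV4 and ETV5, the IER genes IER2, IER3 and IER5, the mRNA decay factors ZFP36, ZFP36L1 and ZFP36L2, the phosphatases DUSP1, DUSP4, DUSP5 and DUSP6, the Sprouty genes SPRY2 and SPRY4, and TRIB1, PHLDA1 and GEM. Each symbol matched 1 row of the table. They were measured by RNA-seq in RPE1, an established line of human retinal pigment epithelial cells grown with 10% fetal bovine serum. The 4 groups of 3 biological replicates were cells given siRNA against Anillin and sorted at 4N DNA content, cells given a non-targeting siRNA, labelled Random, and sorted at 4N, cells given Anillin siRNA and sorted at 2N, and cells given the non-targeting siRNA and sorted at 2N. The non-targeting groups are called control. All groups had siRNA for 24 hours, were stained at 37 °C for 60 min with the DNA dye Hoechst 33342 (2 µg/mL), and were sorted before RNA was isolated. A 2N gate holds cells before DNA replication, and a 4N gate holds both cells that have copied their DNA and cells that became tetraploid by failing to divide, which DNA content alone cannot separate.

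Immediate early genes are transcribed within minutes of a growth factor or stress signal from factors already present in the cell, so their RNAs follow the recent activity of the RAS, RAF, MEK and ERK kinase cascade and of related stress kinases. Many encode transcription factors, among them the FOS and JUN proteins that pair to form AP-1. Others close the loop: dual-specificity phosphatases (DUSPs) remove the activating phosphates from MAP kinases, Sprouty proteins damp receptor signalling upstream of ERK, and ZFP36 proteins speed the decay of short-lived mRNAs that carry AU-rich elements. Anillin is the scaffold of the contractile ring, and cells without it fail cytokinesis and become tetraploid.

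The libraries held 17412742 to 61760450 reads assigned to genes, 3.31% to 4.54% of them mitochondrial. ANLN, the siRNA target, stood at 0.0989, 0.0855 and 0.07 RPKM in Anillin 4N cells, against 8.42, 7.45 and 7.98 in control 4N cells, and at 0.085, 0.0582 and 0.0395 in Anillin 2N cells, against 1.88, 1.25 and 1.66 in control 2N cells. The 12 G2/M markers summed to 46.4 to 50.7 RPKM in Anillin 4N, 302 to 344 in control 4N, 14 to 15.2 in Anillin 2N and 39.5 to 59.5 in control 2N cells. After Anillin siRNA all 12 were called lower at each DNA content, with a median log2 change of -2.45 at 4N and -1.23 at 2N. The 8 p53 targets summed to 126 to 132 RPKM in Anillin 4N, 44.3 to 51.3 in control 4N, 64.3 to 70.8 in Anillin 2N and 42.3 to 45.9 in control 2N cells, and all 6 that could be tested were called higher after Anillin siRNA at each DNA content. The part of these shifts in cell-cycle stage and p53 output in the changes below was not tested, and in bulk RNA fewer cells that express a gene and less RNA per cell cannot be told apart. Of 10 retinal pigment epithelium markers, 9 were below 0.5 RPKM in every library, OTX2 being the exception, while the simple epithelium keratins KRT8 and KRT18 summed to 94.4 to 148 RPKM. Markers of other epithelia and of muscle were below 0.5 RPKM in every library, as were 3 of 4 blood markers, CD68 being the exception. The 3 mesenchymal markers summed to 909 to 1010 RPKM.

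The promoters of 3 of the genes are shown as examples that hold a CArG box or a CRE, elements that most promoters searched here lacked. RefSeq promoter windows on GRCh38.p14, from 250 bases before to 50 bases after a start site, were available for 24 of the 35 genes, in 33 windows. The genes with no window were DUSP4, DUSP5, EGR3, ETV4, ETV5, FOSL1, GEM, IER3, KLF10, TRIB1 and ZFP36L2. Both strands were searched for the CArG box, which serum response factor (SRF) binds, for the cyclic AMP response element (CRE) TGACGTCA, which CREB and ATF factors bind, and for the AP-1 element TGANTCA. EGR1 (chr5:138465229-138465528, plus strand) has CArG boxes that begin 105 and 83 bases before its start, and SRF itself (chr6:43171019-43171318, plus strand) has CArG boxes that begin 30 and 10 bases before its start. JUND (chr19:18281573-18281872, minus strand) has a CRE that begins 200 bases before its start. The sequences run 5′ to 3′ along the gene, with the matched element in capitals.
EGR1: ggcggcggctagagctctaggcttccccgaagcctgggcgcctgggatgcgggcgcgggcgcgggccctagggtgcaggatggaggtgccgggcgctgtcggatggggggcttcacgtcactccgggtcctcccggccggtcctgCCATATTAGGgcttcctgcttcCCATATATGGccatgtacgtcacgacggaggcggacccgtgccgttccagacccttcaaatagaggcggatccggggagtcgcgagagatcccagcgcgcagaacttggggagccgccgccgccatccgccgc
SRF: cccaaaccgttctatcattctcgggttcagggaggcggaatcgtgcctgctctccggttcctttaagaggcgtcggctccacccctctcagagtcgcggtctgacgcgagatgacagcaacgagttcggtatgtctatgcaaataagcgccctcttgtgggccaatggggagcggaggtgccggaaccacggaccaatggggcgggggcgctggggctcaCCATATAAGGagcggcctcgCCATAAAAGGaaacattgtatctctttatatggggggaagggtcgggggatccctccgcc
JUND: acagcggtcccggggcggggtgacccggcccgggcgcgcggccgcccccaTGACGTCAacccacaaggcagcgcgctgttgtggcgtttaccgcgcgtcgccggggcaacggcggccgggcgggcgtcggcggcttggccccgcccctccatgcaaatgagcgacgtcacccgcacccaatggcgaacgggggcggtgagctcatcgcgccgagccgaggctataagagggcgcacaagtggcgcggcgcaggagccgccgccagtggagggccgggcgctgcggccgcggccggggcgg
A CArG box was in 3 of the 33 windows (9.09%), those of EGR1, EGR2 and SRF, and in 1.29% of all 35114 windows. A CRE was in 4 of the 33 (12.1%), those of DUSP1, JUND, MAFF and ZFP36L1, and in 1.85% of all windows. The AP-1 element was in 1 of the 33 (3.03%), that of FOSL2, and in 7.71% of all windows. The TATA box (TATAAA) was in 6 of the 33 (18.2%) and in 11.5% of all windows, and the GC box (GGGCGG) in 22 of the 33 (66.7%) and in 45% of all. Elements more than 250 bases before the start were not searched. The matches are of letters and do not show binding in RPE1 cells.

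Most of these genes were well expressed in every group. These are levels after staining and sorting, and the part of that handling in them was not tested. The unit is RPKM, reads scaled by gene length and library size, where the length is the genomic span with its introns, so genes with long introns are understated against intron-poor ones. On this scale the means over all 12 libraries were 174 RPKM for EGR1, 174 for IER3, 159 for JUNB, 154 for FOSB, 136 for DUSP1 and 104 for FOS, the highest of the 35. EGR1 and IER3, at the top, and FOSB and JUNB, next to each other, had ranges over libraries that overlapped, 125 to 225 RPKM for EGR1 and 131 to 253 for IER3, 128 to 179 for FOSB and 136 to 180 for JUNB. At the low end were MAFF at 1.94, ETV5 at 0.767, ETV4 at 0.169 and EGR2 at 0.131 RPKM. EGR2 and ETV4 stayed below 0.5 RPKM in every library, between 0.0999 and 0.158 RPKM for EGR2 and between 0.122 and 0.229 for ETV4. Both were left out of the main test, and the other 33 passed the filter of at least 0.5 RPKM in at least 3 libraries. EGR2 spans 107905 bases with 3689 in exons, and ETV4 spans 51777 with 3607, so RPKM over the span understates both. The strand setting of the authors' counting is not given in the sources used here, so reads of genes that overlap on the opposite strand may be shared: FOSB lies within the span of the DNA repair gene ERCC1 over 7185 bases, JUNB within HOOK2 over 1820 bases, DUSP1 within the antisense transcript AC022217.3 over 3106 bases and ETV4 within DHX8 over 51777 bases. DUSP6, EGR3, IER2, MAFF, NR4A1, PHLDA1, FOSL2, SPRY4, IER3 and ETV5 overlap other annotated transcripts in part.

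At 4N, Anillin siRNA was followed by a mixed change: FOSL1 fell by 1.27 on the log2 scale, EGR3, IER2 and EGR1 were lower, and ATF3, DUSP4, JUND, KLF4 and SPRY2 were higher. Of the 33 genes tested, Anillin 4N cells had 12 higher than control 4N cells, 8 lower and 13 did not pass an adjusted p of 0.05 (limma on log2(RPKM + 0.5), adjusted over all 12892 genes tested). The 20 called are 60.6% of the 33, against 51.5% of all genes tested. That share, taken over both directions, is near the background. The split by direction differed, with 12 of the 20 calls (60%) higher, against 2582 of the 6638 calls over all genes. Of all genes tested, 20.0% were called higher and 31.5% lower. The median log2 change was 0.07 for the 33 and -0.05 for all genes, and the libraries of the groups did not overlap for 18 of the 33, against 60.4% of all genes. Only FOSL1 among the 33 changed by 2-fold or more. With quantile or median-of-ratios scaling, 14 were called higher and 4 lower (77.8% of the calls higher, against 60% as first scaled). The split over all genes moved too, to 3505 higher and 3182 lower with quantile and 3262 and 3385 with median-of-ratios scaling. Other settings ended the calls at 4N of EGR1, DUSP5 and PHLDA1 (no filter, quantile and median-of-ratios scaling, adjusted p 0.0522 to 0.716, and for EGR1 also the 4N groups fitted alone), of GEM, SPRY4 and TRIB1 (no filter and the 4N groups fitted alone, 0.0551 to 0.103) and of NR4A1 (no filter, 0.0918).

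At 2N fewer genes were called, with DUSP5, EGR3, EGR1, IER3 and DUSP6 lower and KLF4, KLF2, JUND, DUSP4 and SPRY2 higher. Anillin 2N cells had 5 of the 33 higher and 8 lower than control 2N cells, with 20 not called. The 13 called are 39.4% of the 33, against 28.6% of all genes, of which 11.4% were higher and 17.1% lower. The median log2 change was -0.06 for the 33 and -0.02 for all genes, and the libraries of the groups did not overlap for 15 of the 33, against 41.4% of all genes. Fitting the 2N groups alone left 4 higher and 3 lower, without DUSP4, DUSP6, EGR3, IER3, PHLDA1 and ZFP36L2. Calls over all 12892 genes fell as well in that fit, to 937 higher and 1410 lower from 1473 and 2209. With no filter the 2N calls of DUSP6, EGR3 and IER3 were lost, and with quantile scaling those of EGR3 and PHLDA1. The 9 genes called at both DNA contents were JUND, KLF4, DUSP4 and SPRY2, higher in both, and EGR1, EGR3, KLF10, DUSP5 and PHLDA1, lower in both. The 9 called at neither were FOS, FOSB, JUN, JUNB, MAFF, KLF6, SRF, ZFP36 and DUSP1.

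**Figure D1:**
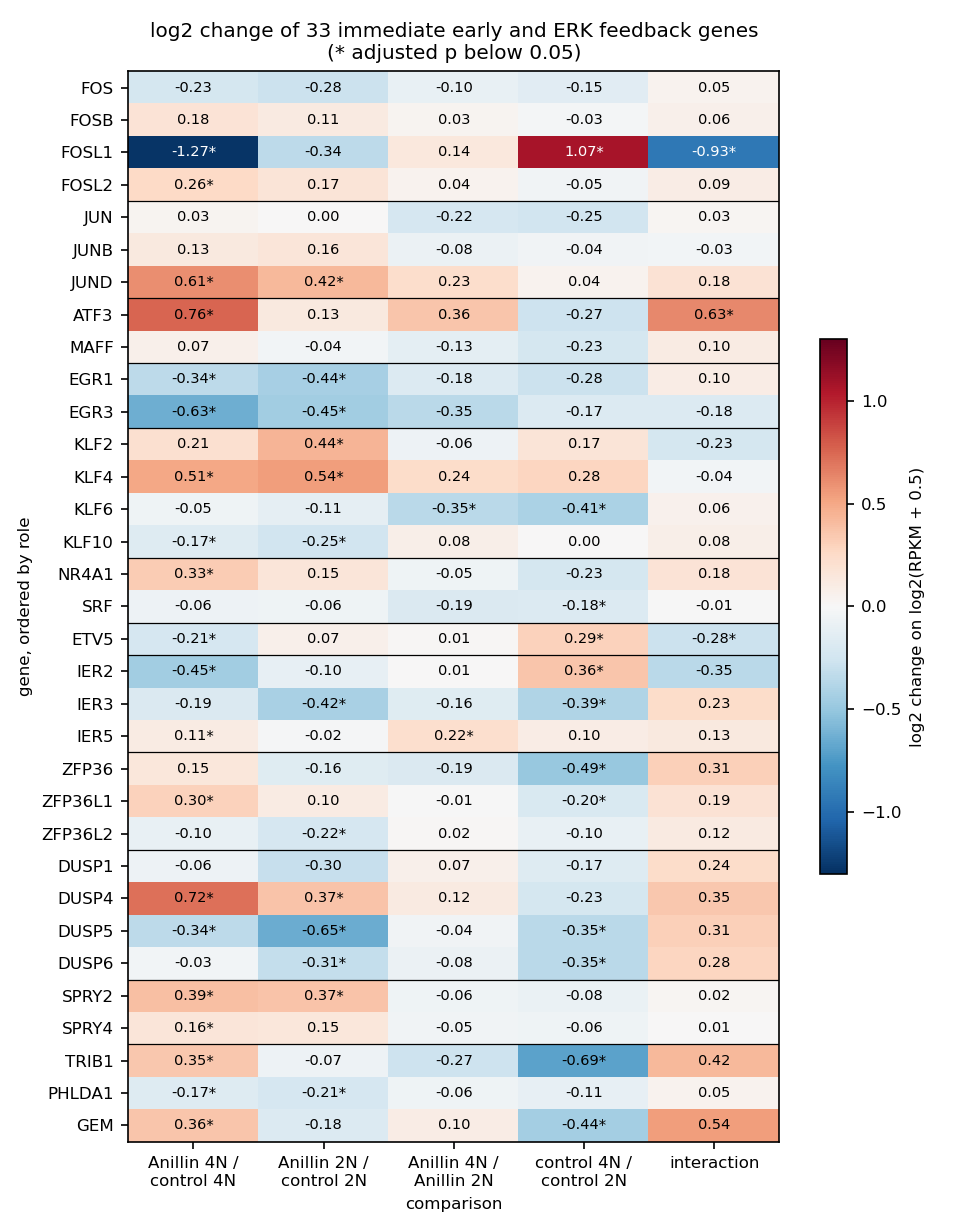
Log2 change on the log2(RPKM + 0.5) scale of the 33 genes tested (rows, ordered by role) in 5 comparisons (columns), each as the group named above over the group named below, and the interaction as the 4N over 2N change with Anillin siRNA minus that in control cells. Asterisks mark an adjusted p below 0.05; the most extreme cells are FOSL1, at -1.27 in Anillin 4N over control 4N and 1.07 in control 4N over control 2N.

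**Figure D2:**
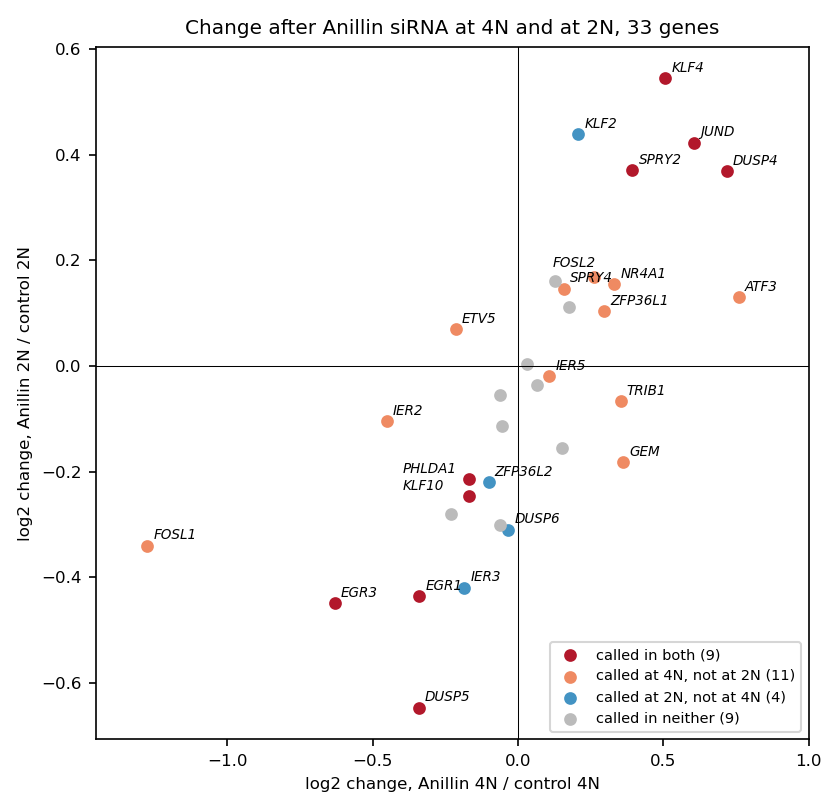
Log2 change after Anillin siRNA at 4N (x axis) and at 2N (y axis) for the 33 genes, coloured by where they were called. The 9 genes called in both have the same sign in both, and FOSL1 stands alone at the left with -1.27 at 4N and -0.34 at 2N.

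Among the AP-1 genes, the largest change was in FOSL1, which encodes the FOS-family protein FRA1 and lies on chr11:65892049-65900573 of GRCh38, minus strand. FOSL1 had 8.91, 9.2 and 10.4 RPKM in Anillin 4N cells, against 25.4, 21 and 24.9 in control 4N cells. It had 8.93, 8.11 and 8.76 RPKM in Anillin 2N cells, against 13.6, 8.7 and 11.3 in control 2N cells. The control 4N libraries were thus the high ones, without overlap with the Anillin 4N or the control 2N libraries, while at 2N the groups overlapped through control 2N replicate 2. FOSL1 fell at 4N with a log2 change of -1.27 ± 0.14 (SE, adjusted p = 4.04e-05). At 2N its log2 change was -0.34 ± 0.14 (adjusted p = 0.0968), and without control 2N replicate 2 it was -0.5 (adjusted p = 0.00802). ATF3, a stress-induced partner of JUN proteins, had 6.87, 6.66 and 8.9 RPKM in Anillin 4N cells, against 3.82, 4.65 and 4.1 in control 4N cells. It had 5.75, 5.04 and 6.34 RPKM in Anillin 2N cells, against 4.71, 5.45 and 5.33 in control 2N cells. Every Anillin 4N library was above every control 4N library, and at 2N the groups overlapped. ATF3 rose at 4N by a log2 change of 0.76 ± 0.12 (adjusted p = 0.000417), and its change at 2N was 0.13 ± 0.12 (adjusted p = 0.458).

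JUND, the JUN family member that is expressed in resting cells and restrains growth in many settings, had 106, 103 and 118 RPKM in Anillin 4N cells, against 75.4, 63.6 and 75.7 in control 4N cells. It had 93.2, 88 and 98.1 RPKM in Anillin 2N cells, against 75.5, 63.7 and 69 in control 2N cells. All 6 Anillin libraries were above all 6 control libraries. JUND rose by 0.61 ± 0.09 on the log2 scale at 4N (adjusted p = 0.000266) and by 0.42 ± 0.09 at 2N (adjusted p = 0.00595). FOSL2, which encodes FRA2, rose by 0.26 at 4N (adjusted p = 0.00873) and differed by 0.17 at 2N (adjusted p = 0.0946; 0.24 and 0.0155 without control 2N replicate 3). The other AP-1 genes were not called in either: FOSB (0.18 at 4N and 0.11 at 2N), JUN (0.03 and 0.0047), JUNB (0.13 and 0.16) and MAFF (0.07 and -0.04). JUNB was called higher at 4N under quantile scaling (log2 change 0.2, adjusted p = 0.0317) and, barely, under median-of-ratios scaling (0.2, adjusted p just below 0.05). FOS, the founding member of the class, had 67, 88.8 and 123 RPKM in Anillin 4N cells, against 96.7, 116 and 106 in control 4N cells. It had 77.3, 92.3 and 127 RPKM in Anillin 2N cells, against 113, 128 and 112 in control 2N cells. The groups overlapped at each DNA content, since the third Anillin library of each was close to or above the control libraries. The log2 change of FOS was -0.23 ± 0.22 at 4N (adjusted p = 0.413) and -0.28 ± 0.22 at 2N (adjusted p = 0.385).

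**Figure D3:**
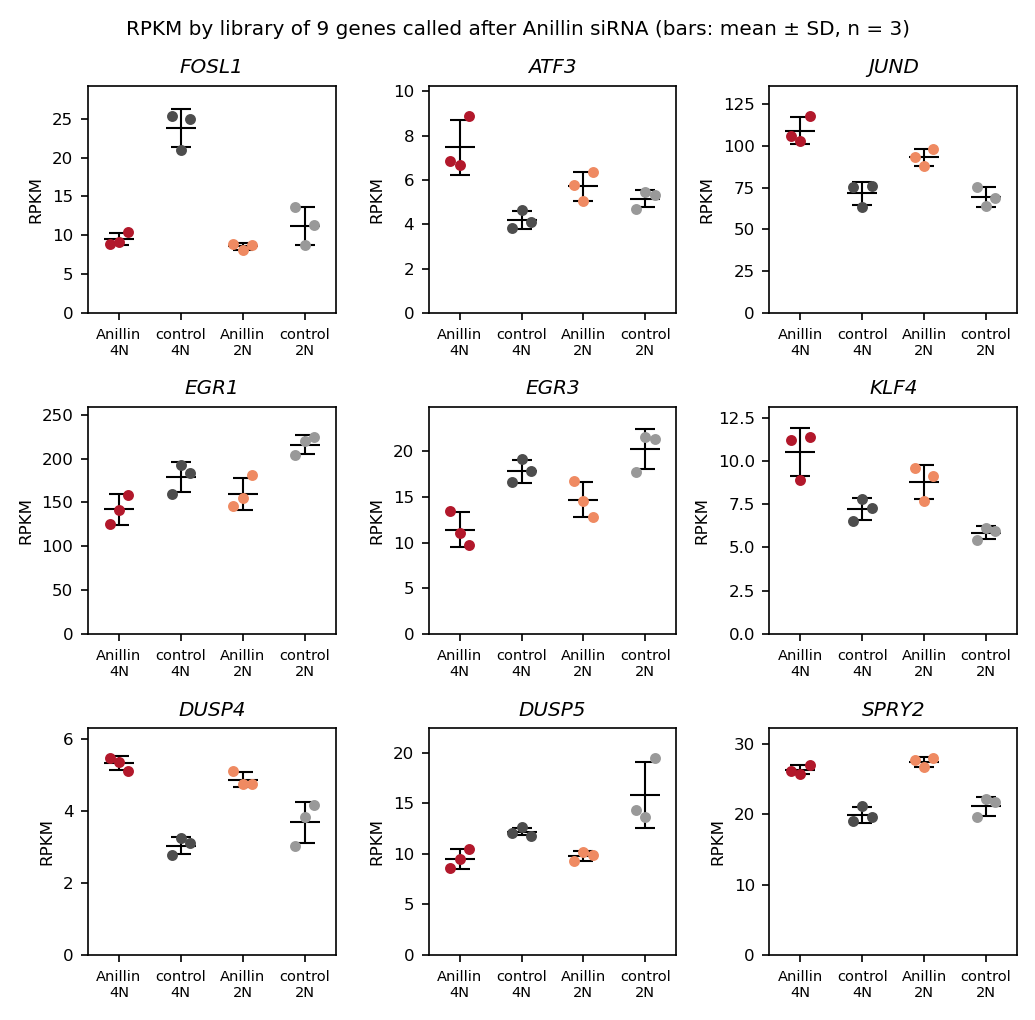
RPKM by library (points; bars are mean ± SD, n = 3) of 9 genes called after Anillin siRNA, with a y axis from 0 for each gene and the groups Anillin 4N, control 4N, Anillin 2N and control 2N from left to right. FOSL1 is high only in the control 4N libraries (21 to 25.4 RPKM), and JUND is higher in each of the 6 Anillin libraries than in any control library.

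**Figure D4:**
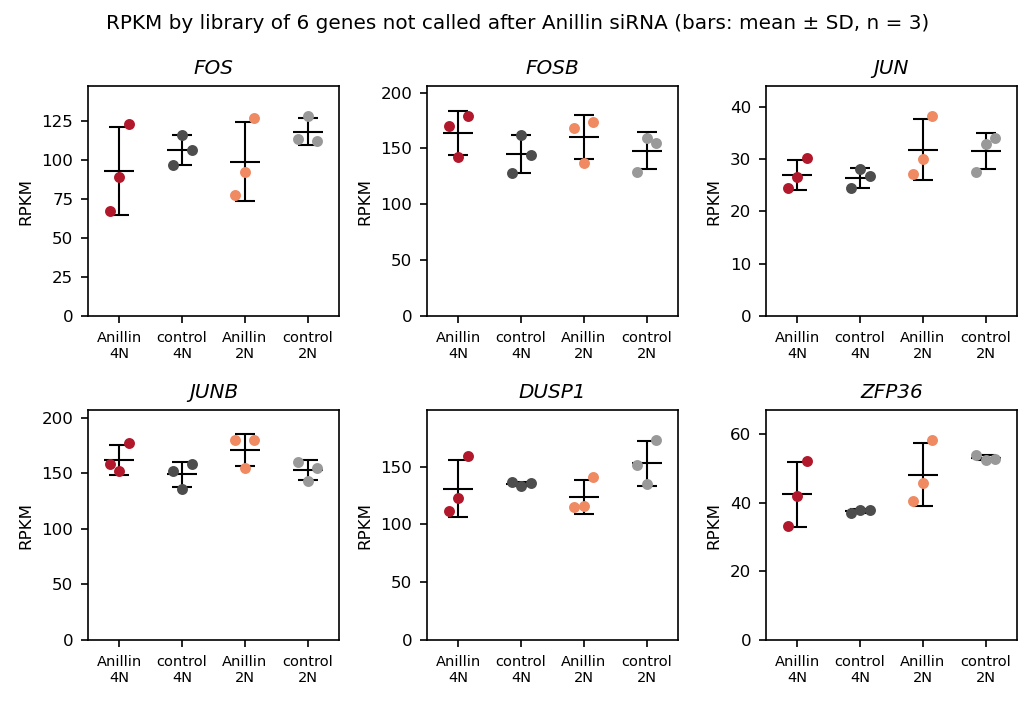
RPKM by library (points; bars are mean ± SD, n = 3) of 6 abundant genes that were not called after Anillin siRNA at 4N or 2N, in the same order of groups. FOS spans 67 to 123 RPKM within Anillin 4N and 77.3 to 127 within Anillin 2N, which takes in most of the control libraries.

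Of the EGR zinc finger factors, which ERK induces through SRF, EGR1 had 125, 141 and 159 RPKM in Anillin 4N cells, against 160, 193 and 184 in control 4N cells. It had 146, 155 and 181 RPKM in Anillin 2N cells, against 204, 220 and 225 in control 2N cells. The groups did not overlap at either DNA content, though the highest Anillin 4N library was next to the lowest control 4N library. EGR1, whose CArG boxes are shown above, fell by 0.34 on the log2 scale at 4N (SE 0.11, adjusted p = 0.0247) and by 0.44 at 2N (adjusted p = 0.0144). The call at 4N was lost without Anillin 4N replicate 1 or 2 or control 4N replicate 2 or 3 (adjusted p 0.0575 to 0.0919), and that at 2N without Anillin 2N replicate 1 or 2 or control 2N replicate 3 (0.0502 to 0.0529). EGR3, a related factor, had 13.5, 11 and 9.71 RPKM in Anillin 4N cells, against 16.6, 19.1 and 17.8 in control 4N cells. It had 16.7, 14.5 and 12.8 RPKM in Anillin 2N cells, against 17.7, 21.6 and 21.3 in control 2N cells. Each Anillin library was below each control library of the same DNA content. EGR3 fell by 0.63 at 4N (SE 0.13, adjusted p = 0.00268) and by 0.45 at 2N (adjusted p = 0.0289), the 2N call being lost without Anillin 2N replicate 2 or 3 or control 2N replicate 2 or 3 (0.0758 to 0.0974).

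The Krüppel-like factors did not move as a group. KLF4, which is known to induce CDKN1A and arrest growth in epithelial cells, had 11.2, 8.88 and 11.4 RPKM in Anillin 4N cells, against 6.54, 7.81 and 7.27 in control 4N cells. It had 9.59, 7.67 and 9.11 RPKM in Anillin 2N cells, against 5.44, 6.15 and 5.97 in control 2N cells. The Anillin libraries were the high ones at each DNA content. KLF4 rose by 0.51 ± 0.11 at 4N (adjusted p = 0.00327) and by 0.54 ± 0.11 at 2N (adjusted p = 0.00523). KLF2, a factor known for keeping endothelial and T cells quiescent, had 14.8, 15 and 16.3 RPKM in Anillin 2N cells, against 12.5, 10.5 and 10.6 in control 2N cells. It had 14.6, 13.4 and 16.1 RPKM in Anillin 4N cells, against 13.6, 10.9 and 13.5 in control 4N cells. Only the 2N groups were apart. KLF2 rose by 0.44 ± 0.10 at 2N (adjusted p = 0.01), and its change at 4N was 0.21 (adjusted p = 0.115), which quantile scaling (0.37, adjusted p = 0.0056), median-of-ratios scaling (0.27, 0.0334) and voom (0.26, 0.0244) called. KLF10, a TGF-beta-induced repressor, fell by 0.17 at 4N (adjusted p = 0.00657) and by 0.25 at 2N (adjusted p = 0.00189), and quantile and median-of-ratios scaling ended the 4N call (adjusted p 0.0957 to 0.744). KLF6 had log2 changes of -0.05 at 4N and -0.11 at 2N and was not called.

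NR4A1, an orphan nuclear receptor, averaged 15.5 ± 1.7 RPKM in Anillin 4N cells and 12.2 ± 0.504 in control 4N cells (SD, n = 3 each). It was called higher at 4N (0.33, adjusted p = 0.0416) but not without Anillin 4N replicate 1 or 3 or any single control 4N replicate (0.0545 to 0.144). SRF, which drives many of these genes through the CArG box, was not called after Anillin siRNA, with log2 changes of -0.06 ± 0.06 at 4N and -0.06 at 2N (adjusted p = 0.377 and 0.505). ETV5, an ETS factor that follows ERK activity, had 0.775, 0.692 and 0.744 RPKM in Anillin 4N cells, against 0.923, 0.913 and 0.968 in control 4N cells. It had 0.726, 0.734 and 0.722 RPKM in Anillin 2N cells, against 0.684, 0.629 and 0.697 in control 2N cells. The Anillin libraries were thus below control at 4N and slightly above control at 2N, with no overlap in either. ETV5 fell by 0.21 at 4N (adjusted p = 0.00065), and its change at 2N was 0.07 (adjusted p = 0.181), on a scale that understates the change of a gene this low.

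Among the IER genes, IER2 was lower at 4N and IER3 at 2N. IER2, a nuclear protein induced within minutes of serum, had 28.8, 33 and 34.5 RPKM in Anillin 4N cells, against 46, 41.1 and 45 in control 4N cells. It had 30.4, 30.8 and 34.5 RPKM in Anillin 2N cells, against 34.8, 31.8 and 36.2 in control 2N cells. Control 4N libraries were the high ones, and the 2N groups overlapped. IER2 fell by 0.45 at 4N (SE 0.08, adjusted p = 0.00114), with -0.10 at 2N (adjusted p = 0.387). IER3, an ERK substrate that affects cell survival, had 157, 150 and 183 RPKM in Anillin 2N cells, against 217, 189 and 253 in control 2N cells. It had 131, 142 and 168 RPKM in Anillin 4N cells, against 170, 166 and 162 in control 4N cells. Only the 2N groups were apart. IER3 fell by 0.42 at 2N (adjusted p = 0.0257), a call lost without Anillin 2N replicate 1 or 2 or control 2N replicate 1 or 3 (0.0665 to 0.0913), and its change at 4N was -0.19 (adjusted p = 0.225). IER5, which is known as a p53-linked gene in some cells, was called higher at 4N by 0.11 (adjusted p = 0.0355), lost without any single Anillin 4N replicate or control 4N replicate 1 or 2 (0.0687 to 0.118).

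Among the ZFP36 decay factors, ZFP36L1 rose at 4N, with a mean of 31.6 ± 1.86 RPKM in Anillin 4N cells and 25.7 ± 1.82 in control 4N cells and a log2 change of 0.30 (adjusted p = 0.0031). ZFP36L2 fell by 0.22 at 2N (adjusted p = 0.0214), a call lost without Anillin 2N replicate 1 or 2 or control 2N replicate 1 or 3 (0.0504 to 0.0791). ZFP36 itself, also called tristetraprolin, had 33.3, 42.1 and 52.2 RPKM in Anillin 4N cells, against 37, 38 and 37.9 in control 4N cells. It had 40.5, 45.7 and 58.3 RPKM in Anillin 2N cells, against 54, 52.6 and 52.9 in control 2N cells. The Anillin libraries of each DNA content lay on both sides of the tightly grouped controls, and ZFP36 was not called (0.15 at 4N, adjusted p = 0.454, and -0.16 at 2N, adjusted p = 0.505).

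The ERK phosphatases split. DUSP4, a nuclear phosphatase for ERK, had 5.48, 5.37 and 5.11 RPKM in Anillin 4N cells, against 2.77, 3.25 and 3.11 in control 4N cells. It had 5.11, 4.75 and 4.76 RPKM in Anillin 2N cells, against 3.04, 3.84 and 4.17 in control 2N cells. All 6 Anillin libraries exceeded all 6 control libraries. DUSP4 rose by 0.72 ± 0.09 at 4N (adjusted p = 0.000129) and by 0.37 ± 0.09 at 2N (adjusted p = 0.0146), the 2N call being lost without Anillin 2N replicate 1 (0.0507) and with the 2N groups fitted alone (0.0646). DUSP5, the other nuclear ERK phosphatase of the list, moved the other way, with 8.55, 9.49 and 10.5 RPKM in Anillin 4N cells, against 12.1, 12.6 and 11.8 in control 4N cells. It had 9.3, 10.2 and 9.88 RPKM in Anillin 2N cells, against 14.3, 13.6 and 19.5 in control 2N cells. The control libraries were the high ones at each DNA content, control 2N replicate 3 most of all. DUSP5 fell by 0.65 at 2N (SE 0.12, adjusted p = 0.00355) and by 0.34 at 4N (adjusted p = 0.0374), the 4N call being lost without Anillin 4N replicate 1 or 2 or any single control 4N replicate (0.0668 to 0.126).

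DUSP6, the cytoplasmic ERK phosphatase whose RNA is widely used as a readout of ERK activity, had 8.67, 8.67 and 10 RPKM in Anillin 2N cells, against 10.7, 11.2 and 12.4 in control 2N cells. It had 8.19, 8.13 and 9.61 RPKM in Anillin 4N cells, against 8.64, 9.54 and 8.35 in control 4N cells. The control 2N libraries stood above the other 9. DUSP6 fell by 0.31 at 2N (adjusted p = 0.0234), lost without Anillin 2N replicate 1 or 2 or control 2N replicate 3 (0.0764 to 0.0863), and its change at 4N was -0.03 (adjusted p = 0.768). DUSP1, which acts mainly on the stress kinases JNK and p38, averaged 131 ± 24.9 RPKM in Anillin 4N and 135 ± 2.1 in control 4N cells, and 124 ± 14.8 in Anillin 2N and 153 ± 19.4 in control 2N cells. It was not called, though voom on the recovered reads called it lower at 2N (-0.30, adjusted p = 0.0319).

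SPRY2 had 26.1, 25.7 and 27 RPKM in Anillin 4N cells, against 19, 21.2 and 19.6 in control 4N cells. It had 27.6, 26.6 and 28 RPKM in Anillin 2N cells, against 19.6, 22.1 and 21.7 in control 2N cells. The 6 Anillin libraries were all above the 6 control libraries. SPRY2 rose by 0.39 at 4N (SE 0.05, adjusted p = 0.000217) and by 0.37 at 2N (adjusted p = 0.00103). SPRY4 was called higher at 4N by 0.16 (adjusted p = 0.0297), lost without Anillin 4N replicate 1 or 2 or control 4N replicate 1 or 2 (0.069 to 0.111), and differed by 0.15 at 2N (adjusted p = 0.0632).

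Of the remaining genes, TRIB1, a pseudokinase that targets proteins for degradation, had 10.4, 12.9 and 13.5 RPKM in Anillin 4N cells, against 8.26, 10.9 and 9.36 in control 4N cells. The groups overlapped, and the call of TRIB1 as higher at 4N (0.35, adjusted p = 0.036) was lost without Anillin 4N replicate 2 or 3 or control 4N replicate 1 or 3 (0.0827 to 0.132). GEM, a small GTP-binding protein, had 37.6, 34.4 and 38.9 RPKM in Anillin 4N cells, against 24.8, 34 and 27.8 in control 4N cells. Control 4N replicate 2 came close to the lowest Anillin 4N library, and the call of GEM as higher (0.36, adjusted p = 0.0468) was lost without any single Anillin 4N replicate or control 4N replicate 1 or 3 (0.0554 to 0.166). PHLDA1, a pleckstrin-homology-like protein induced by ERK, was called lower by 0.17 at 4N (adjusted p = 0.0321) and by 0.21 at 2N (adjusted p = 0.0194). Both PHLDA1 calls were lost without single libraries, at 4N without any Anillin 4N replicate or control 4N replicate 2 or 3 (0.062 to 0.111), and at 2N without Anillin 2N replicate 1 or 3 or control 2N replicate 3 (0.0507 to 0.071).

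In control cells, going by DNA content, the 4N fraction had more FOSL1, IER2 and ETV5 and less TRIB1, ZFP36, GEM, KLF6 and IER3 than the 2N fraction. Of the 33 genes, 3 were higher and 9 lower in control 4N than in control 2N cells, together 36.4%, against 37.1% of all genes, of which 23.9% were higher and 13.2% lower. The median log2 difference was -0.17 for the 33 and 0.05 for all genes, 25 of the 33 had a negative sign, and the groups did not overlap for 16, against 49.8% of all genes. The split was 2 higher and 17 lower with quantile scaling, 3 and 13 with median-of-ratios scaling, 4 and 3 with no filter, and 5 and 14 with voom, the last pair of settings covering all 35 genes. Over all genes the split moved as well, to 2096 higher and 2465 lower with quantile and 2446 and 2247 with median-of-ratios scaling. It was 3276 and 2422 of 38571 genes with no filter, and 4252 and 3926 of 22404 with voom. ETV4 was among the higher calls of the members in those last settings, with a log2 difference of 0.14 with no filter (adjusted p = 0.0117) and 0.52 with voom (0.000246). The mean of ETV4 was 0.211 RPKM in control 4N and 0.144 in control 2N cells. FOSL1, with the values given above, was higher in control 4N cells by 1.07 ± 0.14 (adjusted p = 0.000296), IER2 by 0.36 (adjusted p = 0.0077, or 0.0579 with quantile scaling) and ETV5 by 0.29 (adjusted p = 0.000192). TRIB1 had 8.26, 10.9 and 9.36 RPKM in control 4N cells, against 14.6, 16.3 and 15.8 in control 2N cells, and fell by 0.69 (adjusted p = 0.00202). KLF6 had 14.8, 17.6 and 15.8 RPKM in control 4N cells, against 19.9, 22.6 and 21.8 in control 2N cells, and fell by 0.41 (adjusted p = 0.00132). Neither gene's groups overlapped. DUSP6 fell by 0.35 (adjusted p = 0.0103), and these 6 genes kept their calls without each library.

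The other 6 control calls, all lower at 4N, were each lost when 1 or another library was left out. ZFP36 fell by 0.49 (adjusted p = 0.0328) and lost its call when any 1 of the 6 control libraries was left out (0.0637 to 0.0884). The control groups of ZFP36 did not overlap, and their libraries deviated by -0.02 to 0.02 from the group means. The spread in the test is shared by all 4 groups, and the Anillin libraries deviated by -0.32 to 0.32. GEM fell by 0.44 (0.0276), lost without control 4N replicate 1 or 3 or control 2N replicate 2 or 3 (0.0725 to 0.107). Its RPKM was 24.8, 34 and 27.8 in control 4N cells, against 32.5, 39.4 and 46.5 in control 2N cells, so that the groups overlapped. IER3 fell by 0.39 (0.0278), lost without any control 4N replicate or control 2N replicate 1 or 3 (0.0586 to 0.0894). DUSP5 fell by 0.35 (0.0472), lost without any control 4N replicate or control 2N replicate 3 (0.0711 to 0.117). ZFP36L1 fell by 0.20 (0.033), lost without control 4N replicate 1 or 3 or control 2N replicate 2 or 3 (0.073 to 0.125). SRF fell by 0.18 (0.0299), lost without control 4N replicate 1 or 2 or control 2N replicate 1 or 2 (0.062 to 0.0909). With no filter all 6 calls were lost, and with the control groups fitted alone those of DUSP5, GEM, SRF and ZFP36L1 (0.0524 to 0.113 over both settings).

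After Anillin siRNA, few of these genes were called between the 4N and 2N fractions, with libraries treated as independent. Anillin 4N cells had 1 of the 33 higher and 1 lower than Anillin 2N cells (6.06%, against 3.58% of all genes, 2.61% higher and 0.97% lower). The median log2 difference was -0.05 for the 33 and 0.02 for all genes, and the groups did not overlap for 6 of the 33, against 24.4% of all genes. IER5 had 25.8, 25.7 and 26.2 RPKM in Anillin 4N cells, against 21.1, 22.8 and 22.6 in Anillin 2N cells, with no overlap, and rose by 0.22 (adjusted p = 0.0106). The IER5 call was lost with quantile scaling and with the Anillin groups fitted alone (0.0583 to 0.0645). KLF6 had 15.2, 15.1 and 15.9 RPKM in Anillin 4N cells, against 19.1, 19.5 and 20.7 in Anillin 2N cells, again with no overlap. KLF6 fell by 0.35 (adjusted p = 0.0213), lost when replicate 1 or 2 of Anillin 4N, or 2 or 3 of Anillin 2N, was left out (0.0709 to 0.0854). FOSL1, the gene that differed most by DNA content in control cells, had a log2 difference of 0.14 ± 0.14 here (adjusted p = 0.684).

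The interaction asks whether the 4N over 2N change differed with Anillin siRNA, which is the same as asking whether the siRNA effect differed by DNA content. It was called for 3 of the 33 genes, 1 positive and 2 negative (9.09%, against 15.7% of all genes, 4.93% positive and 10.7% negative). FOSL1 had an interaction of -0.93 ± 0.20 (adjusted p = 0.0115) and ETV5 of -0.28 ± 0.05 (adjusted p = 0.00492), and both kept their calls without each library and under every other setting. ATF3 had an interaction of 0.63 ± 0.17 (adjusted p = 0.0313), lost when replicate 1 or 3 of control 4N, 1 or 2 of Anillin 2N, or 2 or 3 of control 2N was left out (0.0609 to 0.0798), and with no filter (0.0773). GEM had an interaction of 0.54 ± 0.19 (adjusted p = 0.0842), called without control 2N replicate 1 (0.67, adjusted p = 0.03) or control 4N replicate 2 (0.66, 0.0348). DUSP4 had 0.35 (adjusted p = 0.104), called without control 2N replicate 1 (0.46, 0.0102). The siRNA effects on JUND (0.61 and 0.42), KLF4 (0.51 and 0.54), EGR1 (-0.34 and -0.44), EGR3 (-0.63 and -0.45) and SPRY2 (0.39 and 0.37) had interactions of 0.18, -0.04, 0.10, -0.18 and 0.02 in that order, none called.

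Replicate libraries had a wider median spread in these genes than over all genes. The pooled SD within groups on the log2 scale had a median of 0.128 over the 33 genes and 0.079 over all genes tested, and among genes averaging at least 5 RPKM it was 0.144 for the 29 such genes of the list and 0.086 for all. FOS varied most, with an SD of 0.295, at percentile 91.3 of all genes tested, followed by ZFP36 (0.208), FOSL1 (0.183) and DUSP1 (0.181). The deviations went together within a library. In Anillin 4N replicate 3, 27 of the 33 genes were above their group mean, with a median deviation of 0.12, and in Anillin 2N replicate 3, 26 were above, with a median of 0.07. In Anillin 4N replicate 2, 27 were below their mean, and in Anillin 2N replicate 2, 26 were below. Control libraries shifted as well, with 27 above in control 2N replicate 3 (median 0.04), 22 below in control 2N replicate 1 (median -0.07) and 22 below in control 4N replicate 1 (median -0.03). Over all genes tested, the median deviation of these libraries was between -0.01 and 0.02. In order of listing, FOS deviated by -0.42, -0.02 and 0.45 among the Anillin 4N libraries, and by -0.32, -0.07 and 0.39 among those at 2N. EGR3 ran against FOS, being lowest in the third library of both Anillin groups, at 9.71 and 12.8 RPKM, where FOS was highest, at 123 and 127. Without Anillin 4N replicate 3 the median change of the 33 genes in Anillin 4N over control 4N cells was -0.01 in place of 0.07, and without Anillin 2N replicate 3 the median in Anillin 2N over control 2N cells was -0.13 in place of -0.06. The labels give no number shared between groups, so whether a 4N and a 2N library came from the same culture is not given; replicate numbers here only name the libraries in order of listing, and every test treats the libraries as independent.

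**Figure D5:**
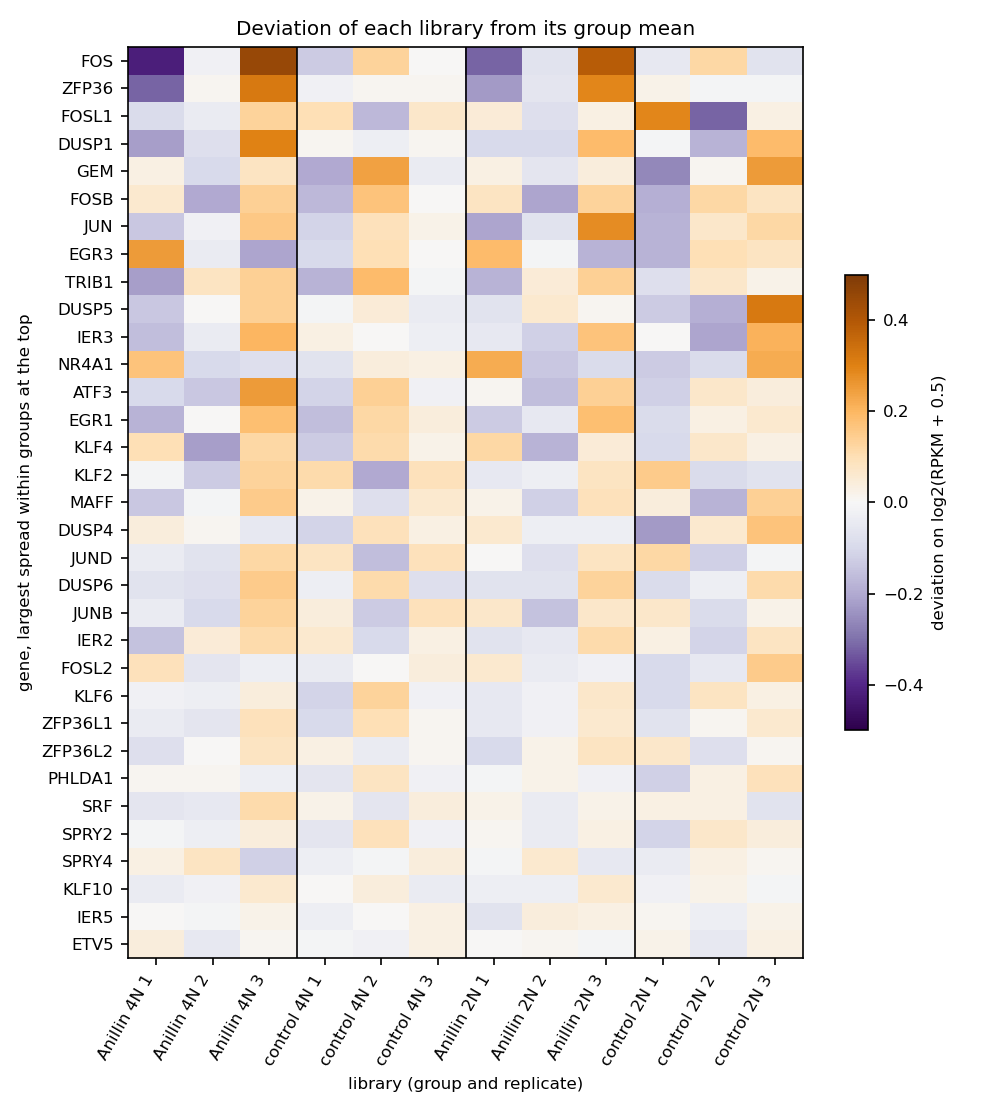
Deviation of each of the 12 libraries (columns) from its group mean on the log2(RPKM + 0.5) scale for the 33 genes (rows, widest spread within groups at the top). FOS runs from -0.42 to 0.45 within Anillin 4N and from -0.32 to 0.39 within Anillin 2N, and the third library of both Anillin groups is above its mean for most genes.

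The rest of the pathway was read through 5 further lists. Of the ERK cascade core, from receptors through RAS, RAF, MEK and ERK to their substrates, 28 of 34 genes were tested; after Anillin siRNA 6 were higher and 9 lower at 4N (53.6% called, against 51.5% of all genes), and 7 were higher and 6 lower at 2N (46.4%, against 28.6%). At 4N the scaffold KSR1 rose by 0.49 (adjusted p = 5.19e-06) and the kinase MKNK2, which phosphorylates eIF4E downstream of ERK, by 0.41 (0.000386). The kinase RPS6KA4, also called MSK2, fell by 0.61 at 4N (0.00037), the receptor MET by 0.54 (4.68e-05), PEA15, which holds ERK in the cytoplasm, by 0.52 (0.000111) and the adaptor GRB2 by 0.41 (1.79e-05). At 2N, MKNK2 rose by 0.36 (0.00243), NRAS by 0.29 (0.00042) and FGFR1 by 0.27 (0.000512), and MET fell by 0.30 (0.00498) and GRB2 by 0.25 (0.00136). The log2(RPKM + 0.5) scale understates the change of low genes. As ratios of mean RPKM, Anillin 4N over control 4N, KSR1 stood at 2.14 and MKNK2 at 1.35. RPS6KA4 stood at 0.602, MET at 0.624, PEA15 at 0.692 and GRB2 at 0.627. The median log2 change of the core was -0.02 at 4N and 0.02 at 2N.

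Of 19 other ERK feedback genes, 14 were tested, and after Anillin siRNA 9 were higher and 2 lower at 4N (78.6% called, against 51.5% of all genes, 20.0% higher and 31.5% lower), with a median log2 change of 0.21 against -0.05 for all genes. LRIG1, which promotes the loss of EGF receptors, rose by 0.86 (adjusted p = 6.36e-07), the phosphatase DUSP2 by 0.82 (0.000136), DUSP8, which acts on JNK and p38, by 0.61 (0.00021) and the ERK-controlled repressor CIC by 0.39 (0.00125), while the RAS inhibitor RASA1 fell by 0.41 (2.87e-06). At 2N, 5 of the 14 were higher and none lower (35.7%, against 28.6%), with DUSP2 at 0.95 (0.00025), DUSP8 at 0.47 (0.00299) and LRIG1 at 0.44 (0.000266). As ratios of mean RPKM, the 4N changes were 2.29 for LRIG1, 1.9 for DUSP2, 2.97 for DUSP8, 1.35 for CIC and 0.643 for RASA1. The 2N ratios were 2.07 for DUSP2, 2.2 for DUSP8 and 1.5 for LRIG1. LRIG1 also had a positive interaction (0.42, adjusted p = 0.00363) and RASA1 a negative one (-0.34, 0.000738).

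Of 35 other immediate early genes, 33 were tested, with 8 higher and 4 lower at 4N (36.4% called, against 51.5% of all genes) and 6 higher and 5 lower at 2N (33.3%, against 28.6%) after Anillin siRNA. BTG2, an antiproliferative gene that is also a p53 target, had 9.82, 11 and 10.7 RPKM in Anillin 4N cells, against 2.95, 3.31 and 2.94 in control 4N cells, and rose by 1.63 (adjusted p = 5.16e-08). The kinase PLK3 rose by 0.83 (1.43e-06) and the GTPase RHOB by 0.63 (0.000658) at 4N. MYC had 12, 12.4 and 13.8 RPKM in Anillin 4N cells, against 22.4, 23.7 and 23.2 in control 4N cells, and 13.4, 13.5 and 14.9 in Anillin 2N cells, against 19.6, 20.2 and 23.8 in control 2N cells. All 6 Anillin libraries were below all 6 control libraries, and MYC fell by 0.84 at 4N (1.74e-05) and by 0.59 at 2N (0.000663). IL6 fell by 0.49 at 4N (0.00132) and by 0.88 at 2N (0.000156). HBEGF, an EGF receptor ligand, fell by 0.42 at 4N (0.0139, or 0.0535 without Anillin 4N replicate 2) and by 0.60 at 2N (0.00495). Of 14 other AP-1 and small MAF factors, 6 were tested, with 2 higher and 1 lower at 4N (50%, against 51.5%) and 1, MAFG, higher at 2N (0.22, 0.00287; 16.7%, against 28.6%). Of 10 ERK ligands, 3 were tested, and PDGFA (0.35, 0.000313) and AREG (0.29, 0.00177) were higher at 4N (66.7%, against 51.5%). At 2N only PDGFA was called, again higher (0.20, 0.0168), which is 33.3% of the 3 against 28.6% of all genes.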

How the data were processed

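RNA-seq of 12 libraries was deposited as 1 table of RPKM per Ensembl gene. The labels name both a stranded mRNA kit and ribosome-depleted total RNA. Per the submitters' processing notes, CASAVA 1.8.2, TopHat2, edgeR and hg19 were used, with no role given; the sources used here give neither strand setting nor annotation. The authors' RPKM values were tested against GENCODE 29 and use each gene's genomic span. Whole reads were recovered within 0.01 read for 100% of the 38571 genes above 0, 29239 of them on GENCODE 29 spans and 9332 through a common divisor. Of the 9332, 6523 were above 0 in every library, all with a whole implied length. A common divisor fits any gene above 0 in a single library, so for such genes it is no check. The authors' further scaling of the libraries was between 0.951 and 1.039 of these totals. Depth limits precision least for abundant genes: the tested members had 435 reads or more in every library.

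Genes with at least 0.5 RPKM in at least 3 libraries (12892) were tested with limma 3.58.1 (R 4.3.3) applied to log2(RPKM + 0.5), with a mean for each of 4 groups, trended variance and Benjamini-Hochberg adjustment over all 12892, two-sided, at 0.05. Fold changes on this scale understate the change of low genes. The script was tested on simulated data. Alternatives were pseudocounts of 0.1 and 1, no filter, quantile and median-of-ratios scaling, limma's voom on the recovered reads (at least 10 in at least 3 libraries, which called 4919 of 22404 genes higher and 5118 lower in Anillin 4N over control 4N), a fit of only the groups compared, and each library left out. Members and lists were chosen with earlier results of these data known. All members are accounted for; per comparison, the up to 5 highest and 5 lowest called are given by library, and of each list up to 4 called genes per direction. FOS, MYC and BTG2 by library were added after their values were seen.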

Additional observations from a re-analysis of the deposited data

Results flagged for a closer look

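The siRNA effect differed by DNA content for 3 of the 33 genes in a test of the difference itself (9.09%, against 15.7% of all genes). FOSL1 had a log2 interaction of -0.93 (adjusted p = 0.0115, limma): its log2 change with Anillin siRNA was -1.27 at 4N and -0.34 at 2N, and its mean was 9.51 RPKM in Anillin 4N, 23.8 in control 4N, 8.6 in Anillin 2N and 11.2 in control 2N cells. ETV5 had a log2 interaction of -0.28 (adjusted p = 0.00492), with -0.21 at 4N and 0.07 at 2N. ATF3 had a log2 interaction of 0.63 (adjusted p = 0.0313), with 0.76 at 4N and 0.13 at 2N, and lost the call when replicate 1 or 3 of control 4N, 1 or 2 of Anillin 2N, or 2 or 3 of control 2N was left out (0.0609 to 0.0798). With no filter the ATF3 call was lost as well.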

How the results depend on the processing

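No called gene named here changed direction under the alternatives run. Of the calls, 11 of 20 in Anillin 4N over control 4N, 6 of 13 in Anillin 2N over control 2N, 0 of 2 in Anillin 4N over Anillin 2N, 5 of 12 in control 4N over control 2N and 2 of 3 in the interaction were kept without each library and under all other settings. With single libraries left out, the members called numbered 13 to 15, 7 to 13, 1 to 3, 6 to 11 and 2 to 5 in that order, the genes called in the 5 further lists 36 to 41, 28 to 33, 4 to 7, 28 to 37 and 10 to 18, and the median log2 changes of the members were -0.01 to 0.11, -0.13 to -0.04, -0.05 to -0.01, -0.18 to -0.12 and 0.06 to 0.14. In each such fit of Anillin 4N over control 4N, the share of members called was below that over all genes. Without Anillin 4N replicate 1, for example, 8 members were called higher and 5 lower, against 2367 and 3613 of 12892 genes. With no filter, 13 members were called in Anillin 4N over control 4N and 7 in control 4N over control 2N, and 6 genes of the further lists in Anillin 4N over Anillin 2N; 38571 genes were then tested. With only the groups compared in the fit, 7 members were called in Anillin 2N over control 2N, 1 in Anillin 4N over Anillin 2N, and 7 genes of the further lists there; fewer samples then entered the fit. Quantile scaling gave 1 member in Anillin 4N over Anillin 2N, 19 in control 4N over control 2N and 5 in the interaction, and moved the median log2 change of the members to 0.17 in Anillin 4N over control 4N, -0.27 in control 4N over control 2N and 0.19 in the interaction; median-of-ratios scaling moved it to -0.24 in control 4N over control 2N. Voom on the recovered reads called 4 members in Anillin 4N over Anillin 2N, 19 in control 4N over control 2N and 7 in the interaction, and 48 genes of the further lists in Anillin 2N over control 2N, 60 in control 4N over control 2N and 26 in the interaction. The cause of the scaling and voom shifts was not tested. No paired analysis was run because the labels number the samples without a replicate number shared between groups. Any variation that 4N and 2N libraries shared therefore stayed in the spread used by the 4N over 2N and interaction tests. With 3 libraries a group, precision is least for FOS, whose spread within groups was the widest.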
